A study of Mus musculus with 4 samples.

Results

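Club cells are the dome-shaped secretory cells of the airway lining, and 7 genes known from them and from neighbouring airway secretory cells are described here: the secretoglobins Scgb1a1, Scgb3a1 and Scgb3a2, the enzymes Cyp2f2 and Aldh1a1, and the membrane proteins Gabrp and Pigr. They were chosen by symbol, and all 7 were found among the 24421 genes listed for each library. The data are poly(A) RNA sequencing of 4 mice on a C57BL/6 background, 2 carrying intact Usp25 (Usp25+/+, animals 139 and 140) and 2 lacking this deubiquitinase gene (Usp25-/-, animals 826 and 850). According to the labels, all 4 were females of 8 weeks that received 2.5% DSS (dextran sulfate sodium, which injures the gut lining) in drinking water over 5 days and ordinary water over a further 2 days, with RNA taken from the colon near the anus. No library from an untreated animal was analysed here, and with 1 library per animal the spread between libraries includes the spread between animals. The labels describe no allele beyond Usp25+/+ and Usp25-/-, and the sources used here do not say whether the deletion affects every cell type.

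Club cells line the small airways together with multiciliated cells. They release secretoglobins, small disulfide-linked proteins of the airway fluid, and carry cytochrome P450 and other enzymes that act on inhaled compounds. They also serve as progenitors that renew the airway epithelium. The secretoglobins among the 7 genes are known mainly from airways. Aldh1a1 and Pigr are also made by other epithelia, including those of gut and liver. Scgb1a1 and Scgb3a2 thus carry most of the information on cell identity.

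The transcripts went against the labelled tissue. Of 20 colon epithelial markers, 13 were under 1 FPKM in every library and 3 were listed at 0 in all of them, whereas Scgb1a1 ranked between 77 and 359 among the 24421 genes of a library. Some genes of that list were present, with Car4, also a gene of lung capillaries, between 193 and 399 FPKM, and Lgals4, Krt20 and Phgr1 at 70.6, 52.4 and 34.4 FPKM in 826. Of its 6 tested genes, 4 were higher in Usp25-/- without overlap, against 19.0% of all tested genes. Guca2a, among these 4, was tested only because of its level in Usp25-/-, at 16.6 and 3.89 FPKM against 0.341 and 0.868 FPKM. FPKM is the number of sequenced fragments of a gene divided by transcript length and by the size of the library. The libraries also went against the labelled sex, with the Y-linked gene Ddx3y between 12.7 and 30.3 FPKM and Xist at no more than 0.110 FPKM. The genotype labels were matched by Usp25 itself, whose FPKM were 38.5 and 16.6 in the intact mice and 2.65 and 1.71 in the deleted ones. Animal 139 stood apart from the other 3 libraries, with a summed level of 20 neutrophil markers of 52225 FPKM against 1419 to 3322 FPKM. Every comparison between genotypes below is one between libraries labelled Usp25+/+ and Usp25-/-.

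RefSeq promoters (GRCm38.p6) were found for 5 of the 7 genes, and 3 are shown because their genes had the steadiest level of the secretoglobins (Scgb3a1) and 2 of the wider ranges between libraries (Cyp2f2 and Pigr). Each is the 250 bases before the start site, written 5′ to 3′ on the strand of the gene, which is the plus strand for all 3. Capitals mark matches, on either strand, to the core motifs CAAGTG or CTCAAG (known from NKX2-1), TGTTTAC (FOXA factors), CACGTG (the E-box of USF factors), TGACTCA (AP-1) and GAAANNGAA (the interferon-stimulated response element). A match is a description of letters and not evidence of binding. The windows are chr11:49663345-49663594 for Scgb3a1, chr7:27119705-27119954 for Cyp2f2 and chr1:130826434-130826683 for Pigr.
Scgb3a1: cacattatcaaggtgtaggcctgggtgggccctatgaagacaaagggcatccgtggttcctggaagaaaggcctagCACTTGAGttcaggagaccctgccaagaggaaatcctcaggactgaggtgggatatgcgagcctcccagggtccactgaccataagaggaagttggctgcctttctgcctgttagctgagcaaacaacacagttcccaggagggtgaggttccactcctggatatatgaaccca
Cyp2f2: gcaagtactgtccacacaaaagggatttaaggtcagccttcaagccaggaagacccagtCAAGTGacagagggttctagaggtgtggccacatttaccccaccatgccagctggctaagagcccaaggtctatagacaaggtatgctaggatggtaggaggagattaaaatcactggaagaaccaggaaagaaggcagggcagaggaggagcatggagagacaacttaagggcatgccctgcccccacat
Pigr: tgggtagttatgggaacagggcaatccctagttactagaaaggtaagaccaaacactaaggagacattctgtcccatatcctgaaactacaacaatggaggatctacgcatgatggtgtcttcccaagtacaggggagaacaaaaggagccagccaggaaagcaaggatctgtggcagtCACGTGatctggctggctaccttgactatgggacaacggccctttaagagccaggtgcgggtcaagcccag

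The Scgb3a1 window held 2 overlapping NKX2-1 core matches on its minus strand, the first beginning 174 bases before the start site. The Cyp2f2 window held 1 such match, beginning 191 bases before the start. At least 1 NKX2-1 core match is found in 22.6% of the 32851 mouse promoter windows of this length. The Pigr window held 1 CACGTG, beginning 71 bases before the start, a motif found in 6.02% of windows. The FOXA core (3.17% of windows), the AP-1 site (4.46%) and the response element core (7.13%) were not in these 3 windows. Of the windows not shown, 1 of Aldh1a1 held an AP-1 match and the other an NKX2-1 match, and the Gabrp window held none of the 5 motifs.

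The 7 genes covered more than 2 orders of magnitude in level. Means over the 4 libraries, on the FPKM scale, which is per length, were 497 ± 218 for Scgb1a1, 167 ± 35.3 for Scgb3a1, 31.7 ± 29.5 for Cyp2f2, 18.3 ± 3.55 for Aldh1a1, 12.0 ± 3.92 for Scgb3a2, 4.32 ± 5.18 for Pigr and 1.68 ± 2.48 for Gabrp (SD, n = 4 libraries of both genotypes). Scgb1a1 lay above Scgb3a1, and Scgb3a1 above Cyp2f2, in all 4 libraries without overlap of their ranges. The neighbours after that overlapped, and Cyp2f2 was above Aldh1a1 in Usp25+/+ and below it in Usp25-/-. The plot of levels by gene shows this order.

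**Figure D1:**
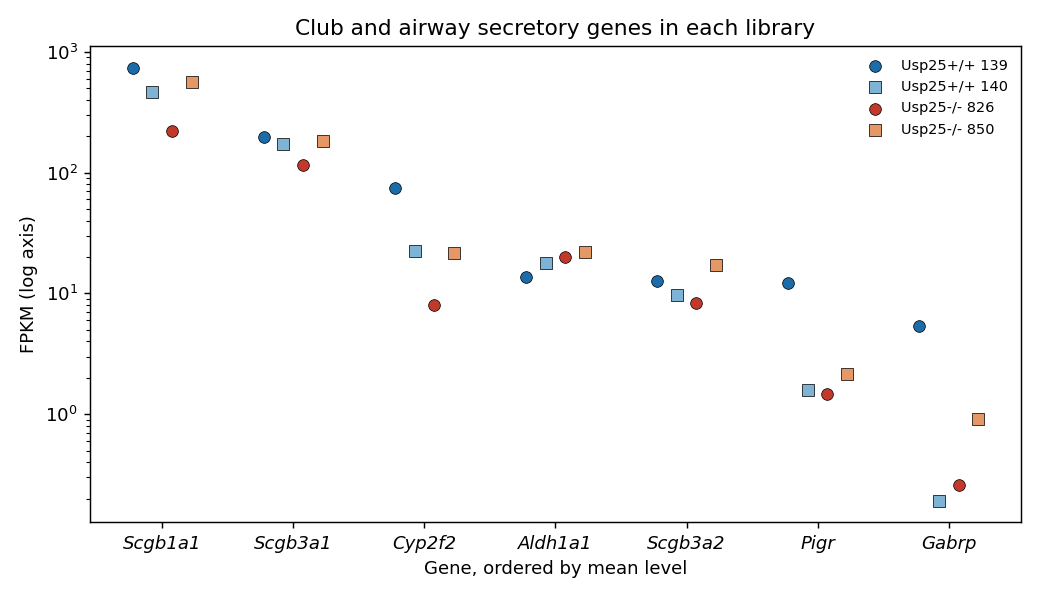
FPKM (log axis) of the 7 genes, ordered by mean level, with 1 point per library: blue for Usp25+/+, red and orange for Usp25-/-. Cyp2f2, Pigr and Gabrp are spread over a wide range with Usp25+/+ 139 on top (74.8, 12.1 and 5.37 FPKM), while Aldh1a1 stays between 13.6 and 21.9 FPKM.

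Scgb1a1, the most abundant secreted protein of club cells, reached 741 FPKM in 139 and 462 FPKM in 140, the Usp25+/+ pair, and 219 FPKM in 826 and 567 FPKM in 850, the Usp25-/- pair. The genotypes overlapped, since 850 lay above 140, and only 826 stood below the rest. The log2 fold change of FPKM + 1 (Usp25-/- minus Usp25+/+) was -0.73 (SE 0.58; limma adjusted p = 0.960 over 12011 tested genes). It shrank to -0.045 without animal 826 and was -1.41 without 850.

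Scgb3a1, a secretoglobin of larger airways and their glands, had 197 (139) and 174 (140) FPKM where Usp25 was intact, compared with 116 (826) and 183 (850) FPKM where it was deleted. It showed the same picture on a smaller scale, with 826 lowest and 850 between the Usp25+/+ libraries. Its log2 fold change was -0.34 (SE 0.37; limma adjusted p = 0.960), and -0.016 without 826. The highest library was 1.69 times the lowest, against 3.38 times for Scgb1a1.

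Scgb3a2, a secretoglobin of small-airway club cells, was far lower, with 12.7 FPKM in 139, 9.69 FPKM in 140, 8.31 FPKM in 826 and 17.1 FPKM in 850. Both Usp25-/- libraries lay outside the Usp25+/+ range, 826 below it and 850 above it. Its log2 fold change, 0.10 (SE 0.41; limma adjusted p = 0.982), changed sign with the library left out, being 0.58 without 826 and -0.38 without 850. All 3 secretoglobins of this set were thus lowest in animal 826. Together they made up 0.178% and 0.118% of the summed FPKM in Usp25+/+ 139 and 140, and 0.0608% and 0.146% in Usp25-/- 826 and 850.

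The secretoglobins did not keep a fixed ratio to each other. Scgb1a1 was 3.77 and 2.66 times Scgb3a1 in Usp25+/+ and 1.88 and 3.10 times in Usp25-/-. The ratio of Scgb1a1 to Scgb3a2 was 58.3 and 47.7 in Usp25+/+ and 26.4 and 33.1 in Usp25-/-, and that of Scgb3a1 to Scgb3a2 was 15.5 and 17.9 against 14.0 and 10.7. Scgb1a1 was 9.91 (139) and 20.7 (140) times Cyp2f2 in the first genotype and 27.6 (826) and 26.4 (850) times in the second. The genotypes did not overlap in these last 3 ratios, which share genes with each other and were not tested; of single tested genes, 33.8% did not overlap. Of the 12 further secretoglobins looked up and found in the files, 9 were listed at 0 in all 4 libraries and 1 was tested, Scgb1c1, at 2.05 and 1.86 against 1.20 and 1.59 FPKM.

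Cyp2f2, a cytochrome P450 that in the lung is concentrated in club cells, where it activates naphthalene, had the log2 fold change farthest from 0 among the 7 genes. Its level was 74.8 FPKM in 139 and 22.4 FPKM in 140, both Usp25+/+, then 7.95 FPKM in 826 and 21.5 FPKM in 850, both Usp25-/-. The genotypes did not overlap, though 140 and 850 lay close together, and the spread came from 139 at the top and 826 at the bottom. Usp25+/+ averaged 48.6 ± 37.1 FPKM and Usp25-/- 14.7 ± 9.59 FPKM (SD, n = 2 each). The log2 fold change was -1.57 (SE 0.72; limma adjusted p = 0.960, and 0.0803 before adjustment). It was -0.72 without 139, -2.42 without 140, -0.90 without 826 and -2.23 without 850. An annotated transcript on the opposite strand, Gm15883, overlaps Cyp2f2, and the libraries carry no strand information.

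Aldh1a1, an aldehyde dehydrogenase that turns retinaldehyde into retinoic acid, went the other way. Usp25+/+ mice had 13.6 (139) and 17.9 (140) FPKM, and Usp25-/- mice 19.9 (826) and 21.9 (850) FPKM, without overlap. The log2 fold change was 0.40 (SE 0.29; limma adjusted p = 0.960), and its largest library was 1.61 times its smallest, the narrowest range of the 7 genes. Aldh1a1 was the only one of the 7 with its lowest value in animal 139. The coding sequence of the paralog Aldh1a7 is 91.6% identical over 1506 aligned bases, so that reads can be shared between them and both values are uncertain. Aldh1a7 had 9.14 FPKM in 139, 2.05 FPKM in 140, 6.92 FPKM in 826 and 4.89 FPKM in 850.

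Pigr, the receptor that carries polymeric immunoglobulins across epithelia, was high in a single library. Animal 139 had 12.1 FPKM, its Usp25+/+ partner 140 had 1.60 FPKM, and the Usp25-/- animals 826 and 850 had 1.47 and 2.14 FPKM. The 3 libraries other than 139 lay within 1.47 and 2.14 FPKM. Its log2 fold change, -1.07 (SE 0.79; limma adjusted p = 0.960), became 0.099 without animal 139.

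Gabrp, the pi subunit of the GABA type A receptor, which is known from epithelia rather than neurons, followed the same pattern at lower levels. Animal 139 stood at 5.37 FPKM, 140 at 0.193 FPKM, 826 at 0.257 FPKM and 850 at 0.914 FPKM. Its mean passed the minimum of 1 FPKM for testing only through animal 139. Its log2 fold change, -0.83 (SE 0.85; limma adjusted p = 0.960), became 0.38 without 139. Pigr and Gabrp had the most similar profiles of the 21 pairs among the 7 genes. The root mean square distance between their centred log2(FPKM + 1) values over 4 libraries was 0.15. The filter fixed the peak of Gabrp in 139, which Pigr shares, so part of this closeness was set in advance. The most distant pair was Cyp2f2 and Aldh1a1 at 1.30.

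None of the 7 genes passed the test between genotypes. Past the threshold of 0.05, limma called 0 of 12011 tested genes after Benjamini-Hochberg adjustment (0%) and 375 before it (3.12%), with 0 of the 7 among the latter. Of the 7 genes, 5 had a lower and 2 a higher mean in Usp25-/-, with a median log2 fold change of -0.73, where 5590 tested genes were lower and 6421 higher, with a median of 0.03. Gabrp, among the 5, was tested only through Usp25+/+ 139, so the filter fixed its lower mean in Usp25-/-. For 2 of the 7, Cyp2f2 (lower) and Aldh1a1 (higher), the genotypes were without overlap, against 33.8% of all tested genes (14.7% lower and 19.0% higher), a share near the background. With 2 animals each the errors are large, so a p above the threshold does not show that the levels were alike.

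**Figure D2:**
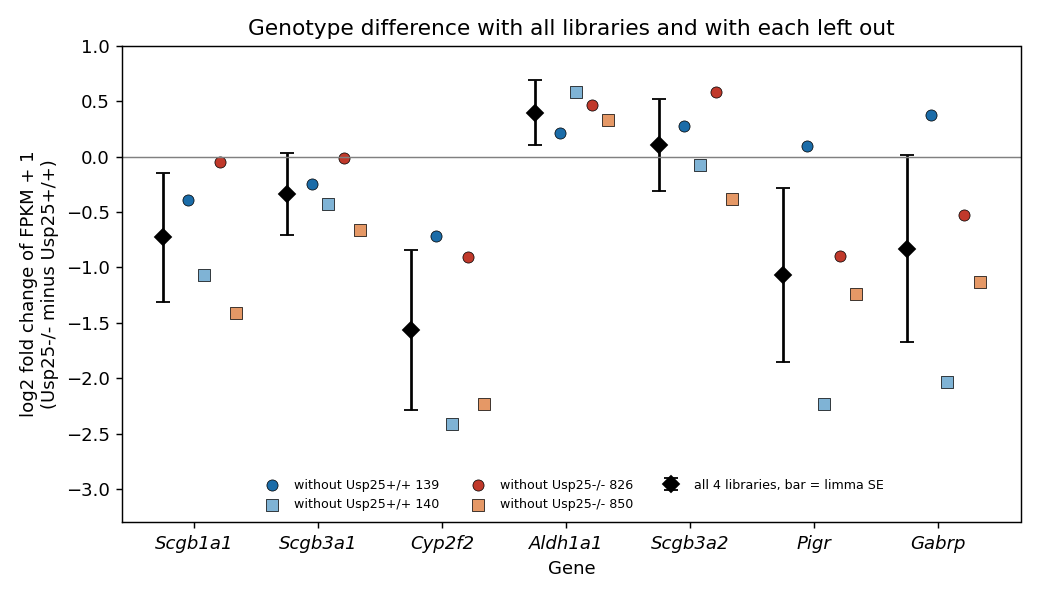
Log2 fold change of FPKM + 1 (Usp25-/- minus Usp25+/+) of the 7 genes with all 4 libraries (black, bar = limma SE) and with each library left out (colours). Leaving out 826 brings Scgb1a1 and Scgb3a1 to -0.045 and -0.016, and leaving out 139 turns Pigr and Gabrp to 0.099 and 0.38.

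The highest and lowest values fell mostly in single animals. Of the 7 genes, 5 were highest in Usp25+/+ 139 and 2 in Usp25-/- 850, where 29.9% of all tested genes were highest in 139. Gabrp, 1 of these 5, was tested only because of its level in 139, so its place there was fixed by the filter, and 4 of the other 6 genes were highest in 139. Likewise 5 were lowest in Usp25-/- 826, where 24.3% of all tested genes were lowest there. The exceptions were Aldh1a1, lowest in 139, and Gabrp, lowest in 140. The log2 range between the highest and lowest library was 3.08 for Cyp2f2, 2.42 for Gabrp, 2.41 for Pigr and 1.75 for Scgb1a1, against a median of 0.79 over all tested genes. It was 0.96 for Scgb3a2, 0.75 for Scgb3a1 and 0.65 for Aldh1a1, which placed these 3 at the 62.2, 46.9 and 37.5 percentiles of all tested genes.

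Markers of other cell types moved between the same libraries, and their part in the results was not tested. In bulk RNA, fewer cells of a type and less RNA per cell cannot be told apart. The 20 neutrophil markers were all highest in 139, as were 29.9% of all tested genes, and Pigr and Gabrp were also highest there. Camp, among the 20, and Gabrp were tested only because of their level in 139, so their place there was fixed by the filter. Camp had 21.7 FPKM in 139 and at most 1.95 FPKM elsewhere. Airway basal cell markers had a summed level of 554 FPKM in 139, against 187, 247 and 166 FPKM in 140, 826 and 850. Icam1, which other cells also make, contributed 428 FPKM of the sum in 139, and without it the sums were 126, 62.7, 137 and 64.7 FPKM, with 826 highest. Of the 7 tested, 4 were highest in 139 and 3 in 826, among the latter Pdpn at 82.2 FPKM and Itga6 at 26.6 FPKM. Krt5 and Krt15, among the 4, were tested only because of their level in 139, so their place there was fixed by the filter. The basal keratin Krt5 was listed at 19.0 FPKM in 139 and at 0.13, 0.191 and 0 FPKM in 140, 826 and 850. Trp63, the transcription factor that defines basal cells, was listed at 1.12, 0.053, 0.277 and 0 FPKM in that order.

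Multiciliated cell markers were low in both 826 and 139. Their summed level over 23 genes was 47.9 and 123 FPKM in Usp25+/+ and 64.2 and 117 FPKM in Usp25-/-, and of the 12 tested 8 were lowest in 826 and 4 in 139. Tppp3, the most abundant of them, had 15.9 FPKM in 139, 65.1 in 140, 44.5 in 826 and 62.6 in 850. Foxj1, the transcription factor that drives motile cilia, was listed at 2.72 and 5.34 FPKM against 1.04 and 3.50 FPKM. Unlike Cyp2f2, none of the 12 was highest in 139. The 16 endothelial markers likewise had their lowest values in 826 (9 genes) or 139 (7 genes). Their sums were 190, 494, 184 and 391 FPKM in 139, 140, 826 and 850. Of all tested genes, 24.3% were lowest in 826, and the share lowest in 139 was not counted. Hepatocyte markers, looked up because some of the 7 genes are also liver genes, were low. Of these, 14 of 16 were under 1 FPKM in every library, and Alb did not exceed 0.282 FPKM.

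**Figure D3:**
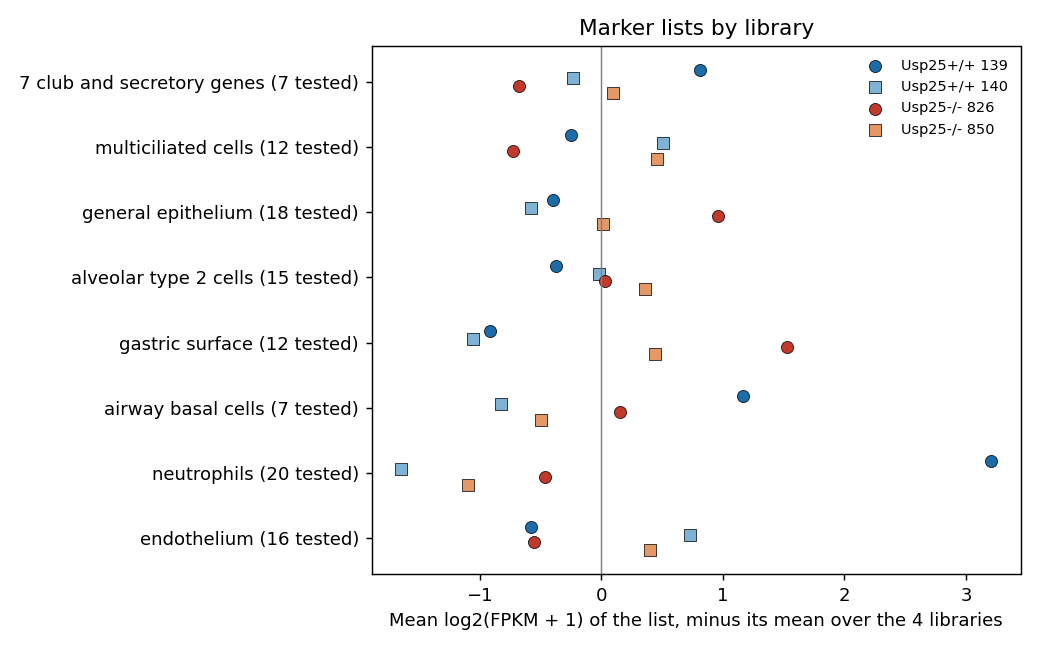
Mean log2(FPKM + 1) of the tested genes of 8 lists in each library, minus the mean of the list over the 4 libraries (x axis). The 7 club and secretory genes are highest in Usp25+/+ 139 (uncentred mean 5.35) and lowest in Usp25-/- 826 (3.87), while the general epithelial genes are highest in 826 (6.10 against 4.56 to 5.14).

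General epithelial genes moved against the club genes in animal 826. All 18 had a higher mean in Usp25-/-, with a median log2 fold change of 0.85, and 17 were highest in 826. The keratins Krt8 and Krt18 stood at 252 and 215 FPKM in 139, 247 and 233 in 140, 1067 and 1030 in 826, and 382 and 444 in 850, and none passed the test (limma adjusted p = 0.960). The 12 tested gastric surface markers were highest in 826 in 10 cases, with a list sum of 3074 FPKM there against 211 to 1207 FPKM in the other libraries. Gkn3 and Psca, among these 10, were tested only because of their level in 826, at 22.1 and 4.16 FPKM. The share of all tested genes that were highest in 826 was not counted. Relative to Epcam, an adhesion molecule of most epithelia, Scgb1a1 was 12.8 and 12.9 times as high in Usp25+/+ and 1.07 and 8.11 times in Usp25-/-.

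Set against the mean of the 18 general epithelial genes, all 7 genes had a lower mean in Usp25-/-, and this centring lowers every gene by the same 0.97. The difference was -2.54 for Cyp2f2, -2.04 for Pigr, -1.80 for Gabrp, -1.70 for Scgb1a1, -1.31 for Scgb3a1, -0.87 for Scgb3a2 and -0.58 for Aldh1a1 on the log2 scale, and the median of all tested genes moved to -0.94. Each of the 7 was lowest in 826 on this scale, but so were 92.6% of all tested genes, since the 18 genes themselves were highest in 826. Set against 15 alveolar type 2 markers, Aldh1a1 was nearly level between genotypes, with a difference of 0.0068, and Scgb1a1 differed by -1.12, while the median of all tested genes was -0.36. Cyp2f2, Pigr, Scgb1a1 and Scgb3a1 did not overlap between genotypes on either scale, where 63.6% (epithelial genes) and 41.8% (type 2 markers) of all tested genes did not overlap.

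**Figure D4:**
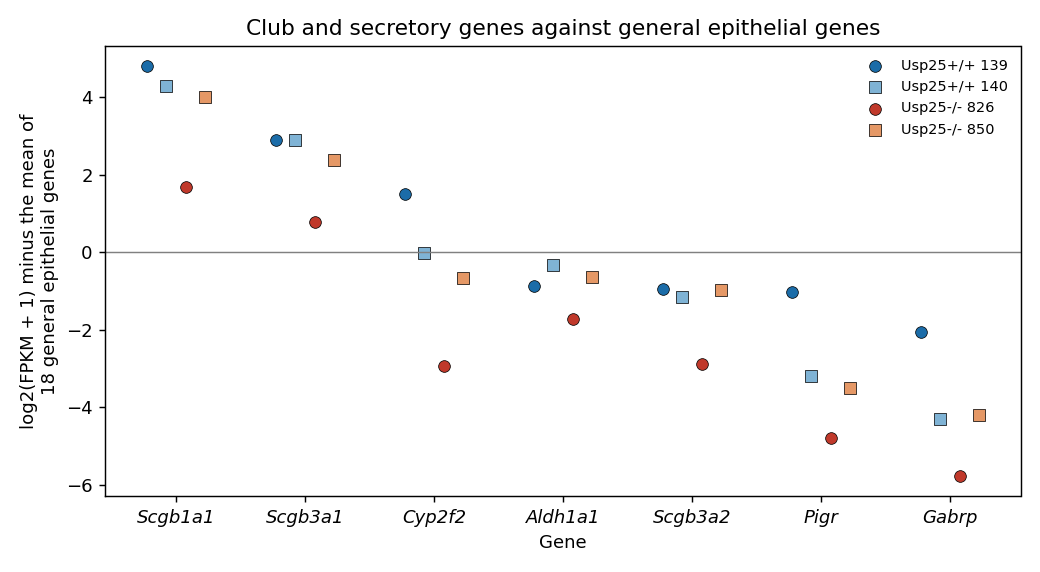
Log2(FPKM + 1) of each gene minus the mean of 18 general epithelial genes in the same library, with 1 point per library. Usp25-/- 826 is the lowest point for every gene, at 1.69 for Scgb1a1 against 4.01 to 4.80 in the other libraries, as it is for 92.6% of all tested genes on this scale.

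Other enzymes that club cells use against foreign compounds showed no common direction. Of 32 such genes, 25 were tested, 15 with a higher and 10 with a lower mean in Usp25-/- (median log2 fold change 0.05), and 0 passed the test. The 4 with the highest level were Mgst1, Gsto1, Cbr2 and Gsta4. The glutathione transferase Mgst1 was even, at 287 and 278 against 297 and 235 FPKM. Cbr2, a carbonyl reductase of lung, had the order of Cyp2f2, at 194 FPKM in 139, 97.0 in 140, 48.5 in 826 and 95.6 in 850 (log2 fold change -1.0, SE 0.52; limma adjusted p = 0.960). Gsta4, a transferase for products of lipid peroxidation, went the other way, at 79.9 and 33.0 against 226 and 93.7 FPKM, and Gsto1 was highest in 826 at 303 FPKM.

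Other genes known from club cells leaned higher in Usp25-/-. Of 28, 20 were tested, 16 were higher and 4 lower, with a median of 0.35. Over all tested genes 6421 were higher and 5590 lower, with a median of 0.03. In 826, 12 of the 20 were highest, a count for which no share over all tested genes was obtained. This list holds Krt18 and Krt19, which most epithelia make. Hp, the haptoglobin gene, stood at 1222 FPKM in 139 and 126 to 279 FPKM elsewhere. Wfdc2, a secreted protease inhibitor, stood at 562 and 240 against 593 and 320 FPKM.

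Secreted proteins of the airway surface and glands followed animal 139 in 7 of 14 tested genes. Bpifa1, an antimicrobial protein of the upper airway, had 1653 FPKM in 139 and 24.8 to 32.5 FPKM in the other 3 libraries, a log2 range of 6.00. Lcn2 and Ltf, which are also neutrophil granule genes, stood at 5537 and 1417 FPKM in 139 and at no more than 105 and 108 FPKM in the others. Lyz2, mainly a product of macrophages and alveolar cells, was lowest in 139, at 12613 against 31444 to 38922 FPKM. The mucin Muc5b was listed at 24.6 and 5.18 against 11.5 and 4.11 FPKM.

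Factors known in secretory cell fate gave no call. Of 25, 21 were tested, 13 higher and 8 lower, with a median of 0.23. Cebpb, Xbp1, Cebpa and Cebpd had the highest levels. Xbp1, which drives secretory protein production, lay between 85.8 and 124 FPKM. Cebpb had 127 and 200 FPKM with intact Usp25 against 246 and 208 FPKM without it, without overlap.

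Around Aldh1a1, 15 of 22 retinoid genes were tested, 12 higher and 3 lower, with a median of 0.18. Dhrs3, which reduces retinaldehyde, was the highest in level, at 45.2 and 82.6 against 58.7 and 76.2 FPKM. Around Gabrp, 25 of the 27 other GABA receptor, synthesis and transport genes were under 1 FPKM in every library, and 1 was tested, the receptor Gabbr1, at 1.55 to 1.89 FPKM.

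Around Pigr, genes of immunoglobulin production and transport, with related receptors and cytokines, and genes that can induce Pigr were looked up. Of the former, 8 of 14 found were tested, 2 higher and 6 lower, with a median of -0.24. Mzb1, among the 6, was tested only because of its level in Usp25+/+ 140, at 6.27 FPKM. Jchain, which joins the polymeric immunoglobulins that Pigr carries and is named outside the rule on levels, was lowest in 139, at 11.8 FPKM, against 60.9, 15.9 and 24.9 FPKM in 140, 826 and 850. Of 27 cytokine, receptor and transcription factor genes that act upstream of Pigr, 25 were tested and 22 had a lower mean in Usp25-/-, with a median of -0.57. Of the 25, 12 were lower without overlap, against 14.7% of all tested genes, and 19 were highest in 139, against 29.9%. Ifng and Il17f, both among the 25, the 22 and the 19, were tested only because of 139. Ifng is also among the 12 that were lower without overlap, so the filter shaped each of these counts. Their levels were 8.36 and 8.45 FPKM there, against at most 0.456 and 1.31 FPKM elsewhere. Il1b, the cytokine gene with the highest level, had 7682 FPKM in 139, 594 in 140, 1965 in 826 and 760 in 850, so that the genotypes overlapped. Tnf had 305 FPKM in 139, 69.2 in 140, 43.7 in 826 and 27.1 in 850, and the interferon-induced factor Irf1 had 242, 78.6, 30.6 and 46.0 FPKM in that order, both without overlap. The receptor gene Tnfrsf1b, at 182, 72.5, 46.9 and 55.0 FPKM, did not overlap either. None of these 4 passed the test (limma adjusted p from 0.960 to 0.962).

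Genes with the most similar profiles were found among 5225 or 5226 candidates with a mean of at least 10 FPKM, by the root mean square distance of centred log2(FPKM + 1) values over 4 libraries. This is a description of 4 points. Klf2 was nearest to Scgb1a1 (0.17), Ugt1a7c to Scgb3a1 (0.024) and Retnla to Scgb3a2 (0.067). Rcsd1 was nearest to Cyp2f2 (0.080), Pdcd5 to Aldh1a1 (0.0087), Gpr132 to Gabrp (0.10) and Adgre5 to Pigr (0.055). Median distances over all candidates ran from 0.34 for Aldh1a1 to 1.19 for Cyp2f2. Ugt1a7c shares most of its exons with other genes of its locus, so its value is uncertain.

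In mm9 (GENCODE vM1), Scgb1a1 (ENSMUSG00000024653.2) lies on the minus strand of chromosome 19 from 9158126 to 9162448, and Aldh1a1 (ENSMUSG00000053279.6) on the plus strand of the same chromosome from 20676451 to 20717952. Scgb3a1 (ENSMUSG00000064057.6) occupies the plus strand of chromosome 11 from 49477112 to 49478620, and Gabrp (ENSMUSG00000020159.2) its minus strand from 33450781 to 33478959. Scgb3a2 (ENSMUSG00000038791.7) lies on chromosome 18 from 43923979 to 43927047, Cyp2f2 (ENSMUSG00000052974.7) on chromosome 7 from 27904928 to 27918679 and Pigr (ENSMUSG00000026417.7) on chromosome 1 from 132723261 to 132748826, all 3 on the plus strand. Annotated exons cover 476 bases of Scgb1a1, 598 of Scgb3a1, 838 of Scgb3a2, 2025 of Cyp2f2, 2053 of Aldh1a1, 3377 of Gabrp and 4025 of Pigr. Apart from Gm15883 at Cyp2f2, no annotated gene overlaps these 7.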

How the data were processed

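Poly(A) RNA of 4 libraries was sequenced in pairs by a kit that does not mark strand, per the labels' protocols. Cutadapt, TopHat2 2.1.1 and Cufflinks were used on mm9, per the submitters' processing notes, and the sources used here give no annotation, filter or scaling. No header states a unit, and the authors' values are read as FPKM from the naming of Cufflinks. Each library is scaled by its own total, so abundant genes can lower all others, and FPKM divide by transcript length, which is uncertain for transcripts as short as secretoglobins. Depth is unknown, so no counting interval is given, and small values such as those of Gabrp may rest on few fragments.

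Groups came from the labels, and animal numbers are not shared between genotypes, so no pairing was used. Those 12011 of 24421 genes whose mean reached 1 FPKM were tested on the log2(FPKM + 1) scale, where changes at low levels come out too small, with limma 3.58.1 in R 4.3.3 (trend, two-sided, Benjamini-Hochberg over all tested genes, threshold 0.05). The fit was tested on simulated data for the direction and mean size of changes larger than any of the 7 genes showed. Its power for differences of the size seen here was not examined. The members and lists were chosen with earlier results of these data known. All 7 members are named, and up to 4 tested genes of highest mean level per list, plus defining markers of a cell type. The genes named as most similar are the nearest 1 of 3 computed per member. Jchain, Aldh1a7, Ifng, Il17f, Guca2a, Gkn3, Psca, Krt15, Camp and Mzb1 fall outside that rule and were chosen after their values were seen. Usp25, Ddx3y and Xist check the labels. Alternatives were other pseudocounts (0.1 and 5), filters (none, or 5 FPKM), scalings, variance models, centring on epithelial or alveolar type 2 genes, and leaving out each library. The lists overlap in some genes.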

Additional observations from a re-analysis of the deposited data

How the results depend on the processing

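No gene was called by limma under any of 13 alternatives, and the adjusted p of the 7 genes ranged from 0.102 to 1 over theirs. Genes at an unadjusted p of 0.05 numbered 375, and 569 without the filter on low values, 227 with a mean of at least 5 FPKM, and 108 to 2593 when 1 library was left out. Genes without overlap numbered 4054, and 6361 to 9707 when 1 library was left out, since fewer samples overlap less often. Scgb1a1, Scgb3a1 and Cyp2f2 kept their direction under all 15 alternatives, with ranges of -1.70 to -0.045, -1.31 to -0.016 and -2.54 to -0.72. Pigr (-2.23 to 0.099) and Gabrp (-2.04 to 0.38) turned higher in Usp25-/- without Usp25+/+ 139 and kept their direction under the other 13 alternatives that could be run, since a minimum of 5 FPKM drops both. The filters and variance models left each fold change as it was, and the centrings could only lower it. Those alternatives could therefore not turn a lower mean into a higher one, and a direction kept under them was fixed in advance. Scgb3a2 ranged from -0.38 to 0.58 when 1 library was left out, being -0.077 without Usp25+/+ 140 and -0.38 without Usp25-/- 850, and was -0.87 and -0.29 when centred on epithelial and alveolar type 2 genes. Aldh1a1 was -0.58 when centred on epithelial genes. These centrings lower every gene by a constant; other causes were not tested. The order of the 7 mean levels was the same after median-of-ratios scaling. A fit without 1 library leaves a genotype with a single sample, assumed to vary like the other. With depth unknown, no limit of detection can be given.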

Other observations

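A few single values from the lists above were picked after they were seen. Cebpa, a transcription factor of airway and alveolar epithelium and of blood cells, had 31.6 FPKM in 139, 63.6 in 140, 53.4 in 826 and 4.31 in 850. Aldh1a3, another enzyme that makes retinoic acid, had 3.96 FPKM in 139, 2.65 in 140, 70.3 in 826 and 9.94 in 850 (log2 fold change 2.71, SE 0.89; limma adjusted p = 0.960), so that in 826 it stood above Aldh1a1 at 19.9 FPKM. Tff2, a trefoil peptide, was listed at 95.0 FPKM in 850 and at 17.0 to 24.1 FPKM in the other 3 libraries. No call rests on any of these, and their cause was not tested.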
